A study of Homo sapiens with 3 samples.

Results

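Signal peptidase and the SEC61 translocon are described here by 10 genes of the 23284 in the deposited gene table: SPCS1, SPCS2, SPCS3, SEC11A and SEC11C of signal peptidase, SEC61A1, SEC61B and SEC61G of the translocation channel, and SSR1 and SSR2 of the translocon-associated protein complex (TRAP). They were taken by name, as the rows of the gene table with these symbols and the 11 rows of the isoform table assigned to them, from 41138. All 10 passed the filter on low values, a mean FPKM of 1 or more across libraries, as did 11870 genes in all. The names were selected on the FPKM values and intervals of these same 3 libraries, so the members' levels, differences and counts past a threshold are given as a description and support nothing.

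Proteins that leave the cytosol through the endoplasmic reticulum carry an N-terminal signal sequence. The signal recognition particle (SRP) binds it on the ribosome and docks at its receptor, the chain then passes through the SEC61 channel, and signal peptidase cuts the signal off on the lumenal side. SEC11A and SEC11C are alternative catalytic subunits of the peptidase and SPCS1, SPCS2 and SPCS3 are accessory subunits. SEC61A1 encodes the pore-forming subunit, SEC61B and SEC61G encode its small partners, and TRAP, built from SSR1 to SSR4, sits beside the channel and assists the entry of some chains.

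The study compared HEK293T cells, a human embryonic kidney line, after transfection of a negative control siRNA, an siRNA against ESRP2 (an epithelial splicing regulator) or an siRNA against Arkadia (a ubiquitin ligase encoded by RNF111), harvested 48 h after seeding. No group received TGF-beta. There was 1 library of polyadenylated RNA per group, so every difference is one between 2 libraries, with no replicate check and no p-value. In bulk RNA, fewer cells that express a gene and less RNA per cell cannot be told apart. The labels do not say how many siRNA sequences were used or how many cultures were pooled.

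RNF111 had an FPKM of 6.38 with control and 1.15 with Arkadia siRNA, 81.9% lower, and ESRP2 had 14.8 with control and 4.27 with ESRP2 siRNA, 71.1% lower; the authors' intervals overlapped for ESRP2 but not for RNF111. In the library of the other knockdown, RNF111 had 7.65 with ESRP2 siRNA and ESRP2 had 21.2 with Arkadia siRNA. The lowest values of the tables step by whole reads, and this implied a depth of about 11.7, 12.2 and 8.80 M reads for control, ESRP2 and Arkadia siRNA. On that basis each member rested on about 351 to 4123 reads per library, whose counting error alone is 3.05% to 10.5% (95%, either side, covering counting error only). These read numbers take the full transcript length and ignore that fewer fragments fit a short transcript, so they are approximate, most of all for SEC61G and SEC61B. The authors' intervals were wider, reaching on average 47.0% to 55.7% of the FPKM to either side for 9 members and 77.1% to 87.0% for SPCS1.

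FPKM is a level per transcript length, so it can be set side by side between genes. In the control library the order from high to low was SEC61B (203), SEC61G (192), SPCS1 (162), SSR2 (133), SEC11C (110), SEC61A1 (96.9), SEC11A (74.1), SPCS2 (42.9), SPCS3 (25.0) and SSR1 (16.3). The small channel subunits SEC61B and SEC61G thus stood at 2.1 and 1.98 times the level of the pore subunit SEC61A1, and SSR2 at 8.12 times the level of its TRAP partner SSR1. Neighbours in this order had overlapping intervals in all 9 adjacent pairs, and the same held in the other libraries. The control intervals of SEC61B (78.4 to 295) and SEC61G (89.5 to 295) also overlapped that of SEC61A1 (51.3 to 142). No order between SEC61A1 and its small partners is therefore read in this library. Those of SSR2 (65.2 to 199) and SSR1 (8.41 to 24.3) did not overlap. By mean FPKM the members lay between percentiles 64.9 (SSR1) and 96.6 (SEC61G) of the genes compared. FPKM of transcripts as short as SEC61G (466 nt) and SEC61B (562 nt) is the most sensitive to how the tool treats fragment length.

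**Figure D1:**
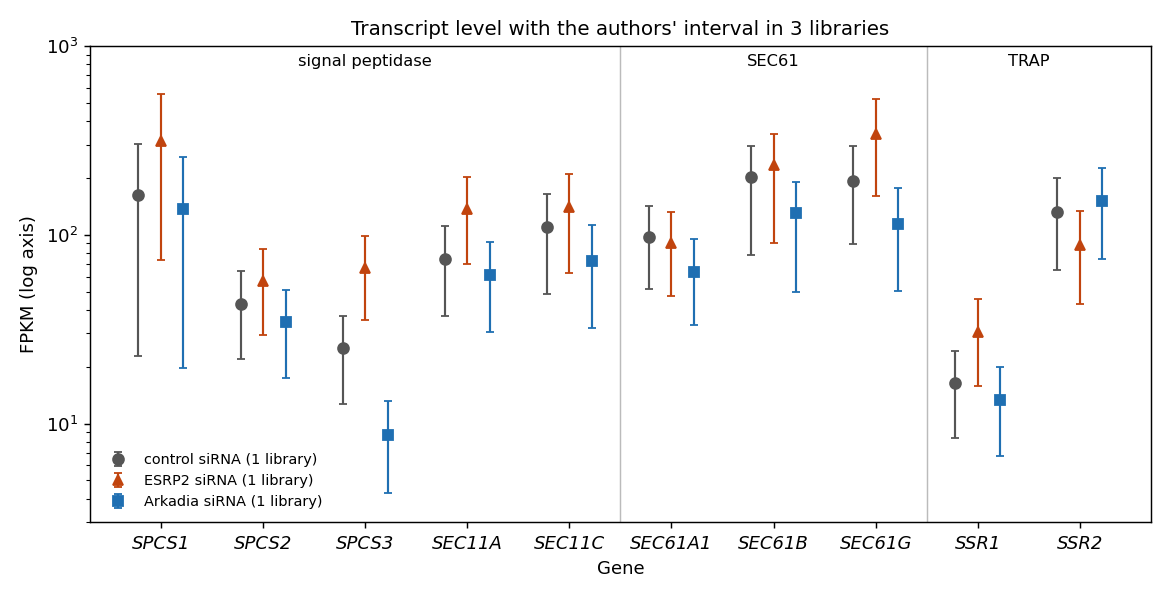
Transcript level (FPKM, log axis) of the 10 genes in the libraries with control, ESRP2 and Arkadia siRNA, with bars for the authors' confidence interval and 1 library per point. The SPCS3 points at 25.0, 66.8 and 8.69 are the most widely spread, and SSR2 is the member with its highest point in the Arkadia siRNA library.

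SPCS3, an accessory subunit known to be essential for signal peptidase activity, differed most between the libraries. Its locus is chromosome 4, 177241090 to 177253396 (hg19), with 1 isoform of 4596 nt and no other gene of the table overlapping it. The FPKM was 25.0 with control siRNA (authors' interval 12.7 to 37.3), 66.8 with ESRP2 siRNA (35.2 to 98.4) and 8.69 with Arkadia siRNA (4.29 to 13.1). Behind these stood about 1340, 3734 and 351 reads. The ESRP2 siRNA library was thus the highest and the Arkadia siRNA library the lowest. Relative to control, SPCS3 was 2.67-fold higher with ESRP2 siRNA (log2 ratio of FPKM + 1 of 1.38, percentile 98.6 of all genes compared) and 2.88-fold lower with Arkadia siRNA (-1.42, percentile 0.379); each knockdown interval overlapped that of the control. Set directly against each other, the knockdown libraries differed 7.69-fold (log2 ratio -2.81), and here the intervals did not overlap. Among the members this was the single pair of libraries with separate intervals, where 4.47% of all genes were lower in this way and 1.9% higher.

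SEC11A and SEC11C encode the catalytic subunits. SEC11A (chromosome 15, 85212775 to 85259674, hg19) had an FPKM of 74.1 with control, 137 with ESRP2 and 61.2 with Arkadia siRNA, which is 1.85-fold higher than control in the ESRP2 siRNA library and 17.4% lower in the Arkadia siRNA library. SEC11C (chromosome 18, 56807125 to 56826063, hg19) had 110, 140 and 72.5, which is 27.7% higher and 34.0% lower. For both genes the ESRP2 siRNA library was highest and the Arkadia siRNA library lowest, with overlapping intervals throughout. At 1.5-fold, SEC11A rose with ESRP2 siRNA and did not fall with Arkadia siRNA, and SEC11C fell with Arkadia siRNA (1.51-fold on the FPKM + 1 scale) and did not rise with ESRP2 siRNA. The ratio of SEC11A to SEC11C was 0.674, 0.978 and 0.844 in the libraries with control, ESRP2 and Arkadia siRNA. With ESRP2 siRNA the gap between the genes was smaller than the counting error. In every library the intervals of SEC11A and SEC11C overlapped each other, so no order between them is read.

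The remaining accessory subunits differed less between the libraries than SPCS3. SPCS1 had an FPKM of 162, 313 and 138 with control, ESRP2 and Arkadia siRNA, 1.94-fold higher with ESRP2 siRNA and 14.9% lower with Arkadia siRNA. Its locus in the table (chromosome 3, 52719936 to 52742197, hg19) also covers GNL3, GLT8D1 and 3 small nucleolar RNA genes. How reads were divided among these genes is not given in the sources used here. Relative to FPKM, its intervals were the widest of the members (22.9 to 304, 73.0 to 555 and 19.8 to 257). SPCS2 (chromosome 11, 74660292 to 74690076) had 42.9, 56.8 and 34.4, which was 32.3% higher with ESRP2 siRNA and 20.0% lower with Arkadia siRNA and passed 1.5-fold in neither. GENCODE 29 names 4 pseudogenes after SPCS2 and 2 after SSR1, so how reads of these genes were assigned is uncertain. The summed FPKM of the 5 signal peptidase genes was 414 with control, 714 with ESRP2 and 314 with Arkadia siRNA.

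The 3 SEC61 subunits had unequal ratios with ESRP2 siRNA and similar ones with Arkadia siRNA. SEC61A1 (chromosome 3, 127771212 to 127790526) had an FPKM of 96.9 with control and 90.1 with ESRP2 siRNA, SEC61B (chromosome 9, 101984570 to 101992901) had 203 and 234, and SEC61G (chromosome 7, 54819940 to 54826939) had 192 and 342. SEC61G rose, 1.78-fold, and the others changed by less than 1.5-fold. With Arkadia siRNA all 3 fell: SEC61A1 to 63.8, 1.52-fold lower, SEC61B to 130, 1.56-fold lower, and SEC61G to 113, 1.69-fold lower. The SEC61A1 and SEC61B values lie close to the threshold, at 1.51-fold and 1.55-fold on the FPKM + 1 scale, and all intervals overlapped. SEC61A1 no longer passed after subtraction of length decile medians (-0.51) or with median-of-ratios scaling (-0.56). The level of SEC61G relative to SEC61A1 was 1.98 with control, 3.79 with ESRP2 and 1.78 with Arkadia siRNA.

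SEC61G was the one member with 2 RefSeq isoforms in the table, of 466 and 462 nt. The longer one, NM_014302, made up 100% of the gene's FPKM with control siRNA, 90.5% with ESRP2 siRNA and 99.996% with Arkadia siRNA. The shorter, NM_001012456, was listed at 0 with control siRNA and at 32.5 with ESRP2 siRNA, with an interval of 0 to 90.5 that holds the value listed in the control library. No change of isoform can be read from these values. The remaining 9 members had 1 isoform each, so the tables do not show splicing for them.

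The TRAP subunits SSR1 and SSR2 differed in direction as deposited; after the median ratio of genes with like GC content was subtracted, both lay slightly above 0 with Arkadia siRNA (0.06 and 0.14). SSR1 (chromosome 6, 7281288 to 7313541), the alpha subunit, had an FPKM of 16.3 with control, 30.7 with ESRP2 and 13.3 with Arkadia siRNA, a 1.88-fold rise and an 18.7% lower value. SSR2 (chromosome 1, 155978839 to 155990758), the beta subunit, had 133, 88.3 and 151, so it was lowest with ESRP2 siRNA and highest with Arkadia siRNA. Its log2 ratio of -0.58 with ESRP2 siRNA lay just inside the 1.5-fold threshold (1.496-fold), and that of 0.19 with Arkadia siRNA well inside. The ratio of SSR2 to SSR1 was 8.12 with control, 2.88 with ESRP2 and 11.4 with Arkadia siRNA. Of the other TRAP subunits, SSR3 rose with ESRP2 siRNA from 45.5 to 92.3 and was 41.0 with Arkadia siRNA, and SSR4 was 668 and 639 and rose to 1130 with Arkadia siRNA.

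Upstream sequences of SPCS3, the most variable member, and of the TRAP pair SSR1 and SSR2 are shown for comparison. Each is the 250 bases before the RefSeq start on GRCh38.p14, a later build than that of the tables, read 5′ to 3′ on the gene's strand: chr4:176319716-176319965 (plus strand) for SPCS3, chr6:7313200-7313449 (minus strand) for SSR1 and chr1:156020952-156021201 (minus strand) for SSR2. Capitals mark CCAAT and CCACG on either strand, the outer parts of the endoplasmic reticulum stress element ERSE.
SPCS3: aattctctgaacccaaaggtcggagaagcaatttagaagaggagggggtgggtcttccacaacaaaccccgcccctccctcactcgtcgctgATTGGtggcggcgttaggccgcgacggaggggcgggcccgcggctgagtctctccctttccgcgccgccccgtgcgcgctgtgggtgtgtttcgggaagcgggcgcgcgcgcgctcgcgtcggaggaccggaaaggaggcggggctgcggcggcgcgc
SSR1: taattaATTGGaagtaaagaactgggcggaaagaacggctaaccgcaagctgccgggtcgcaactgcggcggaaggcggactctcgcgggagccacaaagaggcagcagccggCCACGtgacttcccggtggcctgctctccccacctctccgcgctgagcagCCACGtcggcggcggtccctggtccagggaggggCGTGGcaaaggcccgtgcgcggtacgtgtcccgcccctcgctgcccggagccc
SSR2: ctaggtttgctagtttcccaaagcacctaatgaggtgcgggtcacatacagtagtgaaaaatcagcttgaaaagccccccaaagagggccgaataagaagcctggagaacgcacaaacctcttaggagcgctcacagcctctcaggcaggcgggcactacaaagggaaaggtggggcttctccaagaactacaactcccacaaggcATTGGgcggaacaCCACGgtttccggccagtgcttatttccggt

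RefSeq promoters were matched for 9 members (10 windows, SEC61A1 having 2); SPCS1 was not matched. The full ERSE (CCAAT, any 9 bases, CCACG), ERSE-II (ATTGG, any 1 base, CCACG), the unfolded protein response element TGACGTGG and the cAMP response element TGACGTCA were searched on both strands, and none of the 10 windows held one; 0.0740%, 0.0513%, 0.612% and 1.65% of all 35116 windows did. CCACG alone, which also lies within both ERSE forms, stood in 7 windows, against 33.5% of all, and CCAAT in 6, against 32.0%. SSR1 has CCACG 3 times, and SSR2 has 1 CCAAT and 1 CCACG within its last 44 bases. The SPCS3 window holds CCAAT alone. The windows ranged from 49.6% to 80.8% GC, and those of SPCS3, SSR1 and SSR2 had 69.2%, 68.0% and 53.2%, against a median of 58.0% over all windows. These matches describe letters and are not evidence of binding.

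With ESRP2 siRNA, 5 of the 10 members rose at least 1.5-fold (SPCS1, SPCS3, SEC11A, SEC61G and SSR1) and 0 fell, where 19.9% of all 11870 genes rose and 11.4% fell. The median log2 ratio of the members was 0.61, from -0.58 (SSR2) to 1.38 (SPCS3), beside 0.12 for all genes. By complex, 3 of 5 signal peptidase genes, 1 of 3 SEC61 genes and 1 of 2 TRAP genes rose. After rescaling by the median of ratios or to the upper quartile, 5 rose and 1, SSR2, fell, where 14.5% of all genes rose and 15.5% fell by the first scaling and 12.9% and 17.3% by the second. Of the members SPCS3 alone rose 2-fold and 0 fell that far, where 5.45% of all genes rose and 2.42% fell. No member had an interval separate from control; 0.868% of all genes rose and 0.413% fell in this way.

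With Arkadia siRNA, 0 members rose and 5 fell at least 1.5-fold (SPCS3, SEC11C, SEC61A1, SEC61B and SEC61G), where 9.81% of all genes rose and 11.8% fell. The median was -0.45, from -1.42 (SPCS3) to 0.19 (SSR2), beside -0.02 for all genes. These were 2 of 5 signal peptidase genes, all 3 SEC61 genes and 0 of 2 TRAP genes. With median-of-ratios scaling 3 fell, since SEC11C and SEC61A1 then stood at -0.56, just short of 1.5-fold, and 10.6% of all genes fell. At 2-fold SPCS3 alone fell and 0 rose, beside 2.24% and 1.68% of all genes. Intervals separate from control were found for 0 members, and for 0.244% of all genes among the falls and 0.194% among the rises. Both comparisons use the same control library, so their values are given side by side and are not independent.

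Set directly against ESRP2 siRNA, the Arkadia siRNA library was lower by at least 1.5-fold for 8 members and higher for 1, SSR2, where 30.8% of all genes were lower and 21.2% higher. SEC61A1, 1.41-fold lower, was the remaining member. SPCS3 (7.69-fold), SEC61G (3.01-fold), SSR1 (2.31-fold), SPCS1 (2.27-fold) and SEC11A (2.24-fold) were lower by 2-fold and 0 members were higher, beside 15.5% and 8.9% of all genes. The median ratio of genes with like GC content was then subtracted. By this measure 7 members were lower by 1.5-fold and 1, SSR2, higher, beside 14.1% and 12.4% of all genes. SPCS3 went from -2.81 to -1.73, SEC61G from -1.58 to -0.73 and SSR1 from -1.15 to -0.29. SSR1 and SPCS2 (0.36) no longer passed, and SEC61A1 (-0.73) newly passed. The ESRP2 siRNA library held the highest value of 8 members and of 48.9% of all genes, and the Arkadia siRNA library the lowest value of 9 members and of 43.2% of all genes.

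**Figure D2:**
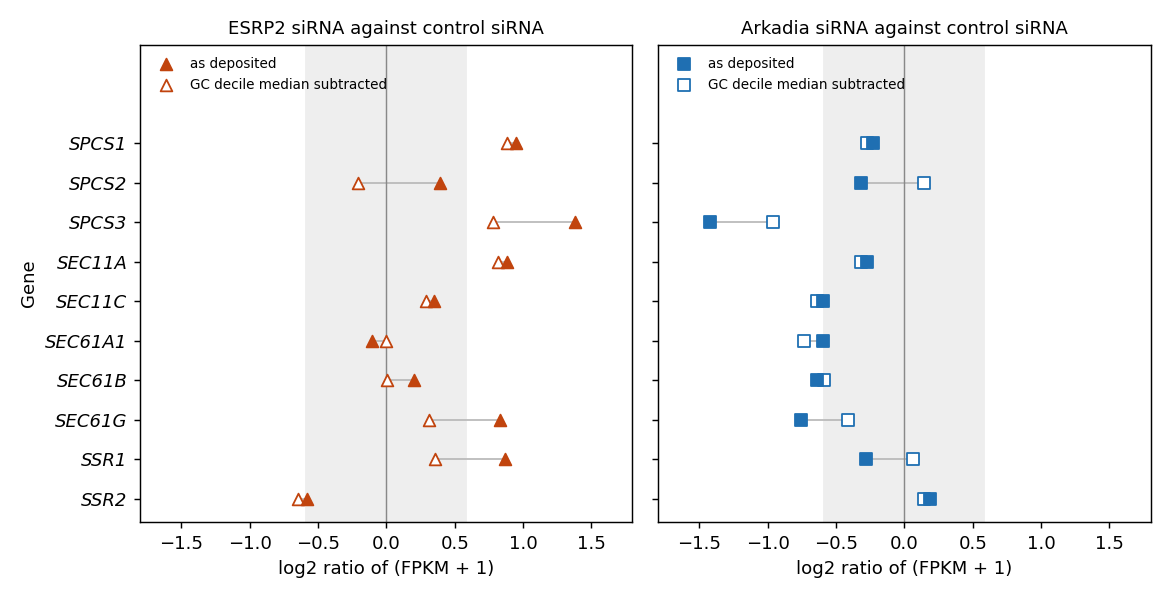
Log2 ratio of FPKM + 1 for each member against control siRNA, with ESRP2 siRNA (left, triangles) and Arkadia siRNA (right, squares), as deposited (filled) and after the median of the gene's GC decile was subtracted (open); grey marks less than 1.5-fold. SPCS3 lies outside the grey band in both panels and by both measures, at 1.38 and 0.78 on the left and at -1.42 and -0.96 on the right.

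Transcript GC content moved with both comparisons across all genes. With ESRP2 siRNA the decile median of the log2 ratio went from 0.60 at a GC content of 37.5% to -0.49 at 64.4%, and with Arkadia siRNA from -0.46 to 0.34. The members fell into 4 AT-rich transcripts, SPCS3 (35.8% GC), SPCS2 (38.6%), SEC61G (40.3%) and SSR1 (40.6%), and 6 between 48.6% (SEC61B) and 53.8% (SEC61A1). Over the 10 members, which share the libraries, the Spearman correlation of GC content with the log2 ratio was -0.60 with ESRP2 siRNA and 0.49 with Arkadia siRNA, as a description. For SEC11A and SEC11C the GENCODE transcript matched was longer than the table's isoform (1656 against 1383 nt and 1202 against 781 nt), so their GC content is approximate. The part of GC content in the members' differences was not tested beyond the subtraction that follows.

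After the decile medians over GC content were subtracted, 3 members were higher by 1.5-fold with ESRP2 siRNA, all of signal peptidase: SPCS1 (0.88), SEC11A (0.82) and SPCS3 (0.78). SSR2 (-0.64) was lower, and 9.2% of all genes were higher and 7.7% lower by this measure. SEC61G and SSR1 went to 0.32 and 0.35 and no longer passed. With Arkadia siRNA, 4 members were lower: SPCS3 (-0.96), SEC61A1 (-0.73), SEC11C (-0.64) and SEC61B (-0.59), where 7.01% of all genes were lower and 6.35% higher. SEC61G stood at -0.41. SPCS3, at 35.8% GC, lies below the 37.5% median of the lowest decile. A single median per decile leaves any trend within that decile in place, so the subtraction may be incomplete for SPCS3. SPCS2 went to -0.20 and 0.15, so its direction turned in both comparisons. SSR1 turned from -0.28 to 0.06 with Arkadia siRNA, and SEC61A1 went from -0.10 to 0.00083 with ESRP2 siRNA.

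**Figure D3:**
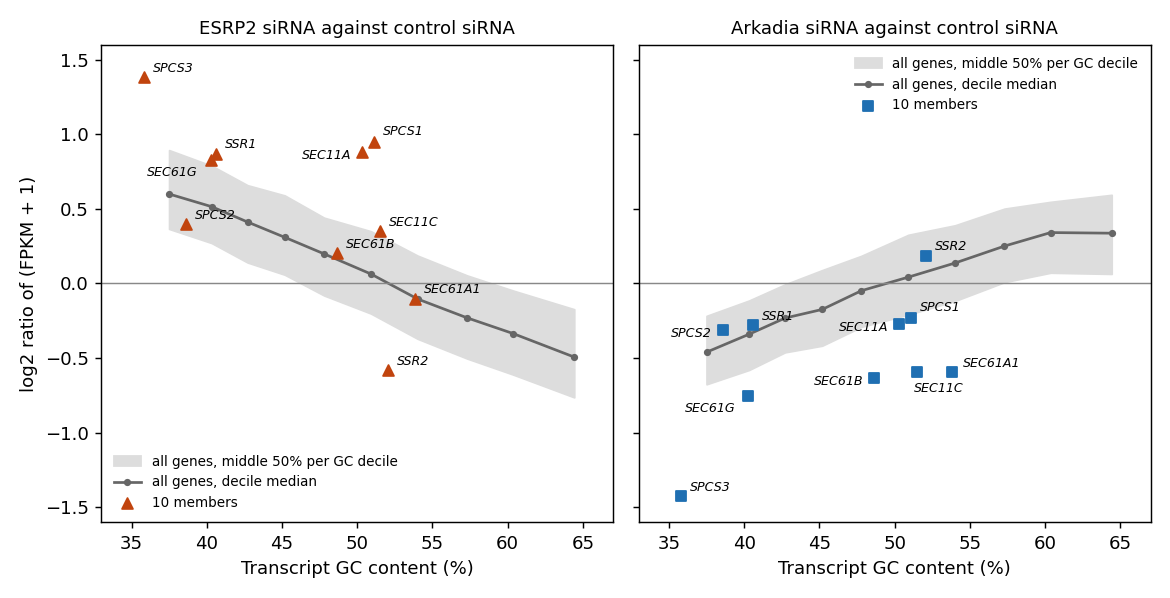
Log2 ratio of FPKM + 1 against transcript GC content (%) for the 10 members (points) with the decile medians (line) and middle 50% (band) of all genes, for ESRP2 siRNA (left) and Arkadia siRNA (right) against control. On the left SPCS1 and SEC11A, at 51.1% and 50.3% GC, lie above the band, SEC61G and SSR1 lie closer above it, and SSR2 lies below it. On the right SEC61A1, SEC11C, SEC61B and SEC61G lie below the band, and SPCS1 and SEC11A lie just below it.

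Around these complexes, 73 other genes of targeting, translocation, glycosylation, membrane insertion and degradation at the endoplasmic reticulum were compared. With ESRP2 siRNA 15 rose and 10 fell, with a median log2 ratio of 0.13, close to the 0.12 of all genes. These are 20.5% and 13.7% of the list, beside 19.9% and 11.4% of all genes. The split was 11 and 14 after median-of-ratios scaling (14.5% and 15.5% of all genes) and 9 and 16 at the upper quartile (12.9% and 17.3%). With Arkadia siRNA 7 rose and 12 fell, 9.59% and 16.4% of the list beside 9.81% and 11.8% of all genes, with a median of -0.03. After GC subtraction 5 rises and 7 falls were left with ESRP2 siRNA (9.2% and 7.7% of all genes) and 3 and 6 with Arkadia siRNA (6.35% and 7.01%). The list as a whole was thus near the level of all genes in both comparisons. Set directly against ESRP2 siRNA, the Arkadia siRNA library was lower for 24 and higher for 15, beside 30.8% and 21.2% of all genes. These are 32.9% and 20.5% of the list. Intervals of the knockdown libraries were separate, and lower with Arkadia siRNA, for SRP9, SRPRB, SEC62, DNAJB9, OSTC and MAGT1. Of all genes, 4.47% were lower in this way.

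Of 8 genes of SRP and its receptor, 5 rose and 0 fell with ESRP2 siRNA, beside 19.9% and 11.4% of all genes, and their median was 0.98 (0.58 after GC subtraction). After GC subtraction 3 still passed, SRP14, SRP54 and SRPRB, while SRP9 and SRP19 stood at 0.58. SRP14 rose from 149 to 380 and SRP9 from 297 to 675; together these form the domain that slows elongation. SRP54, which binds the signal sequence, rose from 32.5 to 76.2, and SRPRB, the membrane-anchored receptor subunit, from 46.0 to 112. SRP19, an assembly subunit, rose from 36.5 to 63.3. SRPR, the receptor subunit that meets SRP54, was 90.7 and 63.4. With Arkadia siRNA SRP68 rose from 57.2 to 87.9 and SRP9 fell to 192, and the other 6 did neither; after GC subtraction 0 of the 8 passed.

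The other partners of SEC61 and TRAP had 4 rises and 0 falls among 19 with ESRP2 siRNA, namely SSR3, SEC61A2 (8.12 to 13.9), the ER calcium channel TMCO1 (17.9 to 29.3) and the BiP cochaperone DNAJB9 (4.86 to 8.22), beside 19.9% and 11.4% of all genes. After GC subtraction none of these 4 passed (0.14 to 0.49), and 1 gene of the list, CCDC47, was lower (-0.71). With Arkadia siRNA there was 1 rise, SSR4, and 4 falls, SEC62, which serves post-translational entry (14.3 to 5.18), TRAM1, a channel-associated protein (47.5 to 26.1), DNAJB9 (to 2.50) and CCDC47 (41.0 to 25.2), of which SEC62 alone passed after GC subtraction (-0.85). HSPA5, the lumenal chaperone BiP, was 192, 240 and 234 and passed 1.5-fold in neither. Of 4 signal peptide peptidase genes, SPPL2B was the one to pass, from 3.32 to 1.78 with ESRP2 siRNA and to 6.21 with Arkadia siRNA; neither call was left after GC subtraction.

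Oligosaccharyltransferase, which glycosylates chains at the channel, had 2 rises and 2 falls among 12 with ESRP2 siRNA and 0 and 4 with Arkadia siRNA. After GC subtraction these were 1 and 3 with ESRP2 siRNA, where OSTC no longer passed and C11orf10 was lower, and 0 and 4 with Arkadia siRNA. MAGT1, an oxidoreductase subunit, rose from 54.6 to 124 and fell to 24.1, and of all 73 genes it lay closest to SPCS3 in its pair of log2 ratios (1.17 and -1.15), at a distance of 0.35 over 3 libraries. OSTC rose from 71.6 to 149 with ESRP2 siRNA. KRTCAP2 fell from 786 to 430 and 332, and the catalytic STT3B from 40.3 to 22.9 and 20.7; TUSC3 fell from 14.8 to 9.10 with Arkadia siRNA. By the same measure SSR3 lay closest to SPCS1, SEC11A and SSR1, and C11orf10, an oligosaccharyltransferase subunit, closest to SSR2.

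The ER membrane protein complex, an insertase, had 1 rise and 3 falls among 10 with ESRP2 siRNA: C15orf24 (EMC7) rose from 29.6 to 49.2, and C19orf63 (EMC10) fell from 53.8 to 25.3, FAM158A (EMC9) from 11.2 to 6.23 and TMEM93 (EMC6) from 44.4 to 26.5. With Arkadia siRNA COX4NB (EMC8) rose from 23.5 to 38.9 and C19orf63 to 82.2, and MMGT1 (EMC5) fell from 28.1 to 15.7. After GC subtraction none of the 4 calls with ESRP2 siRNA was left and TMEM85 (EMC4) was lower (-0.62); with Arkadia siRNA COX4NB, C15orf24 and TTC35 (EMC2) were higher, and the calls of C19orf63 and MMGT1 were lost. Tail-anchored protein insertion had 0 rises and 3 falls among 7 with ESRP2 siRNA: GET4 (37.3 to 22.2), the ATPase ASNA1 (69.0 to 42.1) and SGTA (41.9 to 26.7). SGTA rose to 75.2 with Arkadia siRNA, and the receptor subunit CAMLG fell from 26.6 to 16.3. After GC subtraction none of these 5 calls was left (-0.47 to -0.14 for the 3 falls with ESRP2 siRNA), and UBL4A was lower with Arkadia siRNA (-0.73). ER-associated degradation had 3 rises among 13 with ESRP2 siRNA, with DERL1 up from 19.8 to 34.1, UBE2G2 from 68.2 to 106 and UBE2J1 from 18.8 to 28.9. With Arkadia siRNA OS9 rose from 48.8 to 75.2 and SEL1L fell from 7.01 to 4.16. After GC subtraction UBE2G2 alone of these 5 genes passed. All intervals of the genes named in these lists overlapped those of the control library.

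**Figure D4:**
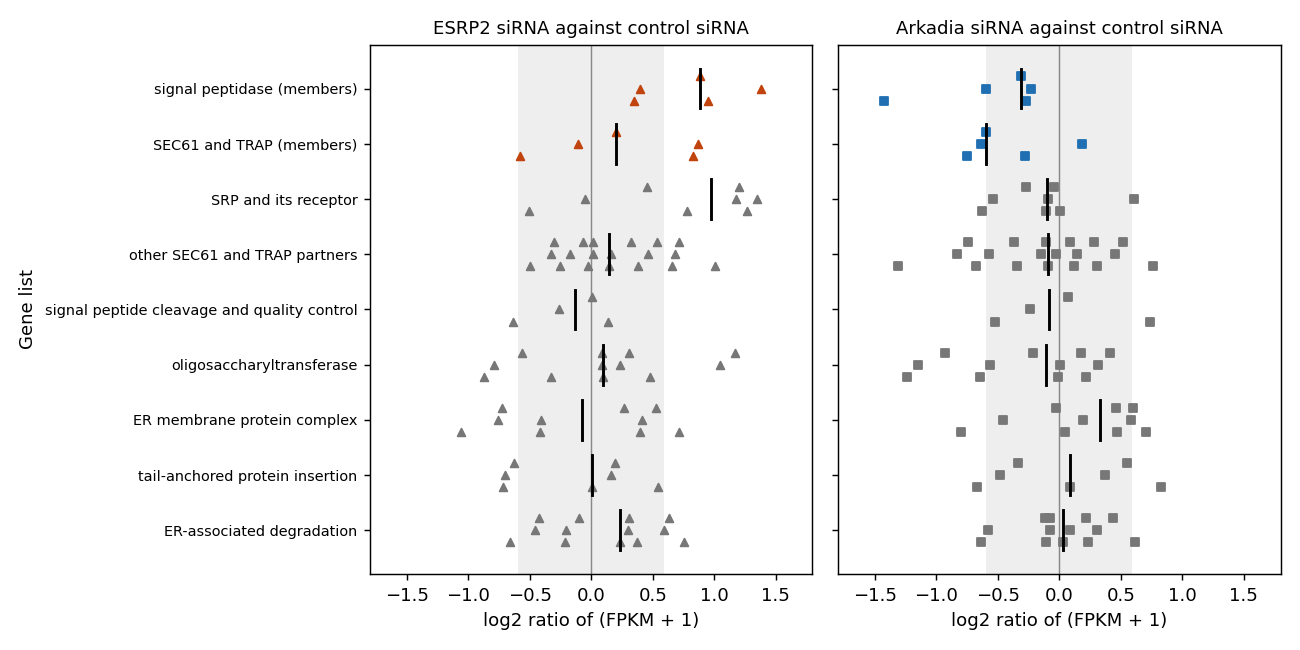
Log2 ratio of FPKM + 1 against control siRNA for the members (coloured) and 73 other genes of the secretory entry route (grey), by list, with a black line at each list's median and grey shading for less than 1.5-fold; ESRP2 siRNA left, Arkadia siRNA right. SRP and its receptor have a median of 0.98 on the left and -0.10 on the right.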

How the data were processed

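Per the file headers, the authors deposited FPKM values, scaled to transcript length and library size, with a lower and an upper confidence bound for each gene and RefSeq isoform. The submitters' processing notes name hg19 and the tools Bowtie2 (2.1.0), TopHat2 (2.0.10), Cuffdiff and Cufflinks (2.1.1). How libraries were scaled, how dispersion was modelled and whether strand was used is not given in the sources used here.

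Columns were matched to the 3 samples by title. The log2 ratio of FPKM + 1 was computed for genes with status OK, a mean FPKM of 1 or more and an isoform of 300 nt or longer; it understates changes of low genes. In place of a test, "rose" and "fell" mean at least 1.5-fold on this scale. In single-isoform genes over 1000 nt, FPKM times length in kb stepped: 98.8% to 99.3% of values above 0 and under 0.15 lay between 0.06 and 0.14, and their median was taken as 1 read. Loci in the tables start from 0 (for 767 single-isoform genes the span equals the length) and are printed from 1. Transcript sequences of GENCODE 29 gave the GC content, through the RefSeq accession for 97.2% of genes and through the symbol for 1.83%; promoters are RefSeq's. Fold calls and decile subtraction were run on simulated data as a check of the code. The simulated fold changes were large and without noise, so the reliability of calls in single libraries was not tested. Pandas 2.3.3 on Python 3.11.15 was used.

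Named are all members, the siRNA targets, up to 4 genes per list and comparison with the largest ratio past 1.5-fold, and list genes closest to a member by Euclidean distance of both log2 ratios; SRP19, SRPR, CCDC47, HSPA5, TMEM85, TTC35, UBL4A and further values of SSR3 and SSR4 were added after they were seen. Members, lists and thresholds were chosen with earlier results of these data known. Some values of single list genes are not reported here.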

Additional observations from a re-analysis of the deposited data

How the results depend on the processing

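Of the members that rose with ESRP2 siRNA, 5 as computed, 3 were left after subtraction of GC decile medians, 1 at 2-fold and 0 when intervals also had to be separate; falls went from 0 to 1 (SSR2) with a pseudocount of 0.1, with median-of-ratios or upper-quartile scaling and after GC subtraction. Falls with Arkadia siRNA went from 5 to 3 with median-of-ratios scaling, to 4 after subtraction of length decile medians (SEC61A1 at -0.51), to 1 at 2-fold and to 0 with separate intervals. In the direct comparison 8 lower and 1 higher became 5 and 0 at 2-fold and 1 and 0 with separate intervals, and GC subtraction turned SPCS2 from -0.71 to 0.36. Of the 73 list genes, 15 rises and 10 falls with ESRP2 siRNA became 9 and 16 at the upper quartile, 7 and 1 at 2-fold, and 5 rises after GC subtraction (7 falls); 7 rises and 12 falls with Arkadia siRNA became 3 and 6 after GC subtraction and 0 and 3 at 2-fold. The cause of these shifts was not tested beyond the settings' own construction. Median-of-ratios and upper-quartile scaling moved the median of all genes by -0.11 and -0.15 with ESRP2 siRNA. The filters on mean FPKM and the summed isoform FPKM changed no member's call, and restricting isoforms to FPKM of at least 1 changed no SEC61G share. No paired analysis was possible because each group has 1 library. Read numbers behind the members are inferred and approximate.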
